A study of Mus musculus with 9 samples.

Results

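The genes described here are the nuclear-encoded subunits of the mitochondrial respiratory chain and ATP synthase, measured by RNA sequencing in mouse skin. They were taken by name from the 57180 rows of the deposited table: symbols that begin with Nduf followed by a, b, c, s or v and a digit, the symbols Sdha to Sdhd, and symbols that begin with Uqcr, Cox4 to Cox8 or Atp5. The rule took 99 rows and used no measured value. They comprised 45 rows of complex I, 4 of complex II, 8 of complex III, 20 of complex IV and 22 of complex V. Of these, 93 were named as subunits and 6 as pseudogenes by the ending -ps, and the rule left out 8 further pseudogene rows that end in -ps and a digit. It also left out Ndufab1, Cyc1 and Cycs, whose names follow no such pattern.

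The libraries came from the backs of BALB/c-nude animals, which lack a thymus and nearly all hair, so the nude background was common to all 9. The UVB-hCOL3A1 group (3 libraries) was irradiated skin labelled hCOL3A1, in a series whose title names mRNA delivery of type III collagen. The UVB-Saline group (3 libraries) was irradiated skin labelled saline, and the NoUVB group (3 libraries) was skin that was not irradiated. UVB was given every other day over 8 weeks, at 60 mJ/cm2 at first and 240 mJ/cm2 in the last weeks, with collection labelled day 28. Nothing in the labels says whether the 3 libraries of a group are 3 mice, so p-values measure the spread between libraries, which may be technical.

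Complex I passes electrons from NADH, and complex II from succinate, to ubiquinone, complex III passes them on to cytochrome c, and complex IV passes them to oxygen. Complexes I, III and IV pump protons across the inner membrane, and complex V uses the return flow to make ATP. Most subunits are encoded in the nucleus, whereas a small core of complexes I, III, IV and V is encoded by mitochondrial DNA. Several subunits of complex IV occur as pairs of isoforms, with one form in nearly all cells and the other in heart and skeletal muscle. Epidermis is a largely glycolytic tissue, and whole skin also holds muscle of the panniculus carnosus, fat, glands and hair follicles.

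Of the 99 rows, 87 passed the filter on low counts, namely 41 of complex I, 4 of complex II, 8 of complex III, 15 of complex IV and 19 of complex V, including 3 pseudogene rows. The other 12 were not tested. Cox8c, Cox7b2, Ndufb11b, Ndufb4b and Atp5l2-ps were listed at 0 in every library. Cox8c and Cox7b2 are known as testis forms. Ndufa11b, Ndufs6b, Atp5c1-ps, Cox6c2, Cox5b-ps and a second row of the symbol Atp5po had at most 6.69 estimated counts in any library. Cox7a1, the muscle form of subunit 7a, had few counts in every group and is described with its partner.

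Total estimated counts per library were 7640172 to 12927411, and 7.71% to 55.3% of them fell on the ribosomal row Rn18s-rs5, lowest in NoUVB 2. Without that row 4274106 to 7402229 counts remained, of which the 99 rows, tested or not, held 13580 to 26179. Levels are given as CPM, counts scaled to a common library size after trimmed mean of M-values (TMM) normalization, and differences as log2 differences from edgeR's quasi-likelihood fit over all 9 libraries, with p-values adjusted by Benjamini-Hochberg over 17168 genes and a threshold of 0.05.

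After TMM scaling, the nuclear-encoded subunits stood at close levels in the 3 groups. Summed over the 87 rows, UVB-hCOL3A1 libraries had 1994, 2327 and 2104 CPM, UVB-Saline libraries 2025, 1995 and 2050 CPM, and NoUVB libraries 1928, 1996 and 1966 CPM. The mean sum of UVB-hCOL3A1 skin was 5.84% above that of UVB-Saline skin and 9.08% above that of NoUVB skin, and the mean of UVB-Saline skin was 3.06% above that of NoUVB skin. UVB-hCOL3A1 2 lay above all the others, and the groups overlapped in all 3 comparisons of these sums. As a share of the counts left without Rn18s-rs5, the 99 rows, tested or not, did not overlap between groups. They held 0.354%, 0.397% and 0.351% in UVB-hCOL3A1, 0.337%, 0.343% and 0.321% in UVB-Saline and 0.318%, 0.317% and 0.306% in NoUVB libraries. The overlap thus depended on the scaling. In bulk tissue, fewer cells of a type and less RNA per cell cannot be told apart.

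**Figure D1:**
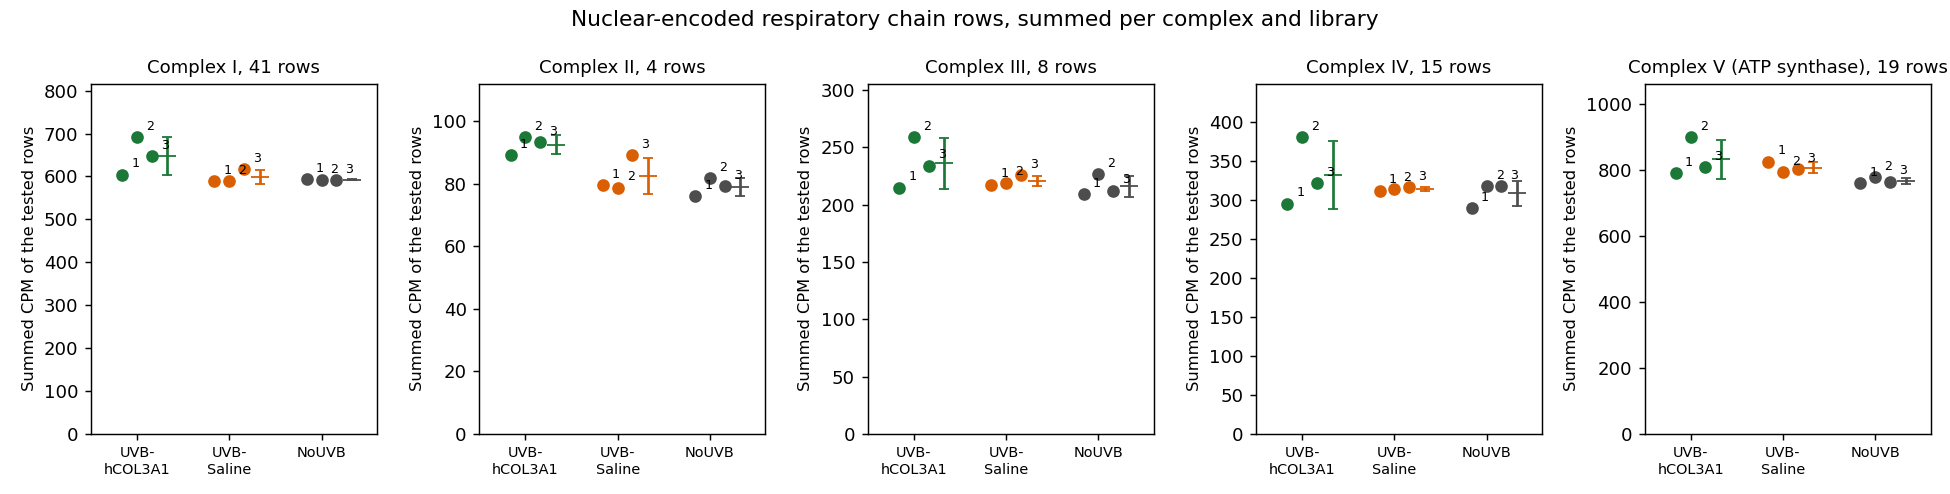
Summed CPM of the tested rows of each complex (y axes, from 0) by group, with 1 numbered point per library and the mean ± SD (n = 3) beside each group. UVB-hCOL3A1 2 is the highest library in each of the 5 panels, and the complex II points of UVB-hCOL3A1 skin (89.1 to 94.9 CPM) lie above those of NoUVB skin (76.1 to 81.8 CPM).

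No row was called in any comparison by edgeR, nor by DESeq2 or limma voom. In UVB-hCOL3A1 against UVB-Saline skin DESeq2 gave no adjusted p for Cox8b (log2 difference 0.98) and Cox6a2 (0.87), so it could not call them there. Between UVB-hCOL3A1 and UVB-Saline skin 0 of 87 passed, against 0% of all genes, and the smallest adjusted p among them was 0.305. Between UVB-Saline and NoUVB skin 0 of 87 passed, against 0.0175% of all genes, with a smallest adjusted p of 0.302. Between UVB-hCOL3A1 and NoUVB skin 0 of 87 passed, against 0.0408% of all genes, with a smallest adjusted p of 0.147. With so few genes called anywhere, a count of 0 was close to the background.

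At an unadjusted p under 0.05, 12 rows were higher and 1 lower in UVB-hCOL3A1 than in UVB-Saline skin, against 5.97% and 5.32% of all genes. In UVB-Saline against NoUVB skin 6 were higher and 1 lower, against 4.93% and 4.6% of all genes. In UVB-hCOL3A1 against NoUVB skin 13 were higher and 1 lower, against 6.29% and 5.52%. Rows whose 3 libraries all lay above or all below the 3 of the other group numbered 17 higher and 3 lower in UVB-hCOL3A1 against UVB-Saline skin, where all genes gave 8.95% and 8.33%. They numbered 12 and 4 in UVB-Saline against NoUVB skin (7.18% and 6.61% of all genes) and 20 and 2 in UVB-hCOL3A1 against NoUVB skin (10.7% of all genes each way).

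The fitted differences were small and mostly positive. The median log2 difference of the 87 rows was 0.081 in UVB-hCOL3A1 against UVB-Saline skin, with 55 above 0, where all genes had a median of -0.024 and 46.1% above 0. It was 0.066 in UVB-Saline against NoUVB skin, with 57 above 0, where all genes had 0.011 and 51.8%. It was 0.15 in UVB-hCOL3A1 against NoUVB skin, with 74 above 0, where all genes had -0.0051 and 49.2%. The comparisons share libraries, so these are not separate pieces of evidence.

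One library stood high across the subunits. UVB-hCOL3A1 2 held the highest value of all 9 libraries in 37 of the 87 rows, where the other libraries held it in 1 to 13. Against the mean of NoUVB, the median row stood 0.021, 0.29 and 0.11 log2 units higher in the 3 UVB-hCOL3A1 libraries, and 0.035, 0.07 and 0.086 higher in the 3 UVB-Saline libraries. Without UVB-hCOL3A1 2 the median difference was 0.083 against NoUVB and 0.051 against UVB-Saline skin, and without UVB-hCOL3A1 1 it was 0.22 and 0.16. Without UVB-Saline 1 the UVB-hCOL3A1 to UVB-Saline median was 0.05. The same library had the highest sums for 16 citric acid cycle genes (693 CPM) and 84 mitochondrial ribosomal protein genes (726 CPM); the part of that library in the result beyond these values was not tested.

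The intervals show what size of change the libraries allow. The 95% interval of the fitted log2 difference lay wholly within 1 unit of 0 for 81 of 87 rows in UVB-hCOL3A1 against UVB-Saline skin, 79 in UVB-Saline against NoUVB skin and 78 in UVB-hCOL3A1 against NoUVB skin, where 71.1%, 71.1% and 70.6% of all genes did so. It lay within 0.5 units for 49, 53 and 44 rows in the same order of comparisons, and for 30.7%, 32.6% and 31% of all genes. Genes of similar abundance were taken as the 4867 other genes whose mean log2 CPM lay between the quartiles of the 87 rows. They lay within 1 unit in 89.9%, 90.3% and 90% of cases, against 93.1%, 90.8% and 89.7% of the 87 rows. Within 0.5 units they came to 48.1%, 52.2% and 49.2%, against 56.3%, 60.9% and 50.6% of the 87 rows. In these shares the 87 rows were nearer to genes of similar abundance than to all genes. The 87 rows also include rows above and below those quartiles, so the sets are not fully matched in abundance. The median SD of log2 CPM within groups was 0.168 for the 87 rows, 0.248 for all genes and 0.184 for other genes of similar abundance.

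**Figure D2:**
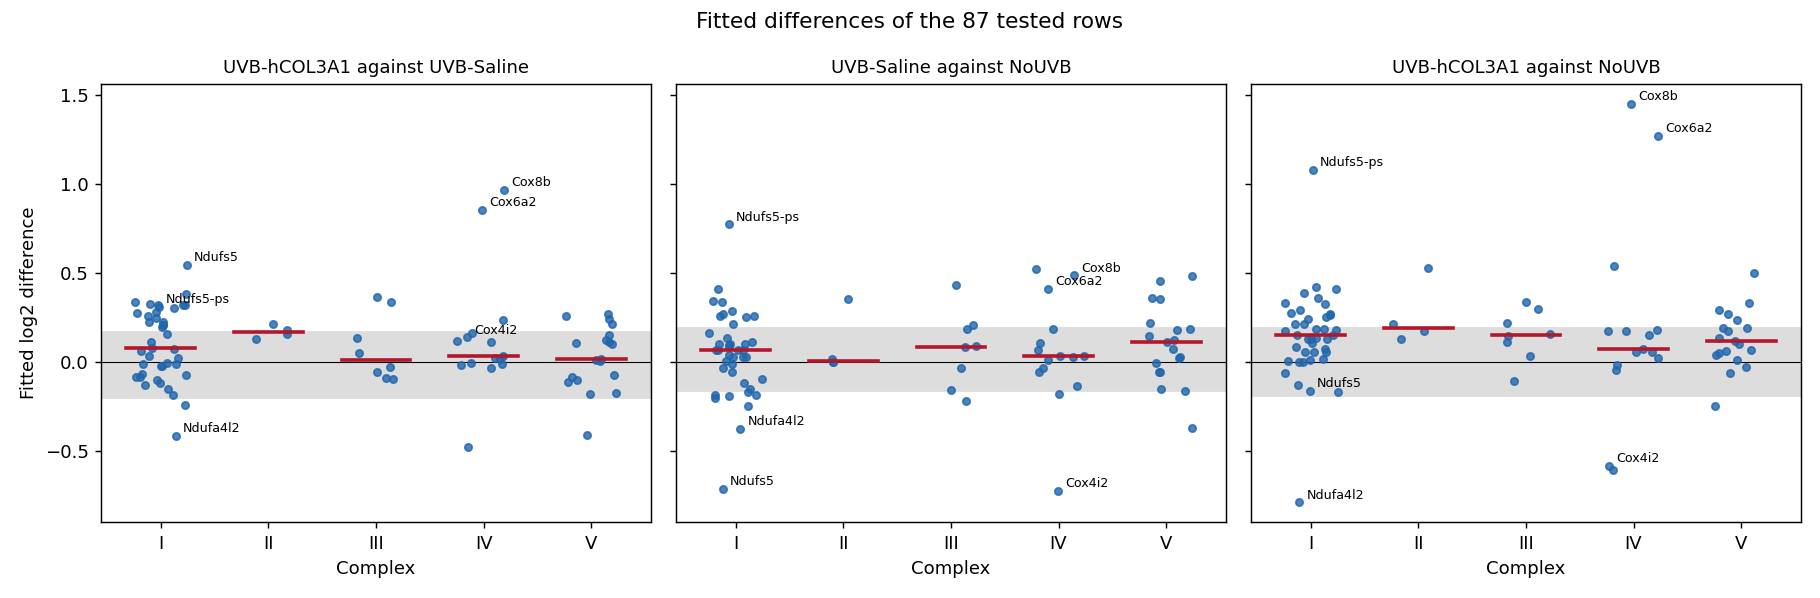
Fitted log2 difference (y axis) of each of the 87 tested rows (points, spread sideways at random within a complex) by complex in the 3 comparisons, with the median of each complex (red line) and the range between the quartiles of all 17168 genes (grey band). Most rows lie near or inside the band. Cox8b, Cox6a2 and Ndufs5-ps lie farthest above 0 and Ndufa4l2 farthest below it in UVB-hCOL3A1 against NoUVB skin, none of them past the adjusted threshold.

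Complex I is the largest complex, with a matrix arm that oxidises NADH and a membrane arm that pumps protons. Its 41 tested rows summed to 604, 692 and 647 CPM in UVB-hCOL3A1 libraries, 590, 588 and 616 CPM in UVB-Saline libraries and 593, 592 and 591 CPM in NoUVB libraries. The UVB-hCOL3A1 libraries all lay above the NoUVB ones, which were nearly level with each other, and UVB-hCOL3A1 and UVB-Saline overlapped. The median log2 difference was 0.081 in UVB-hCOL3A1 against UVB-Saline skin (25 of 41 positive), 0.067 in UVB-Saline against NoUVB skin (27 of 41) and 0.15 in UVB-hCOL3A1 against NoUVB skin (36 of 41).

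Ndufa13, also known as GRIM-19, a membrane arm subunit needed for assembly, had 14.7, 18.6 and 17.8 CPM in UVB-hCOL3A1 libraries, 12.8, 13.9 and 12.4 CPM in UVB-Saline libraries and 12.6, 12.6 and 12.9 CPM in NoUVB libraries. The UVB-hCOL3A1 libraries lay above both other groups. The log2 difference was 0.38 ± 0.13 (SE) against UVB-Saline skin, adjusted p = 0.332 by edgeR, and 0.42 ± 0.13 against NoUVB skin, adjusted p = 0.241.

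Ndufb8, a membrane arm subunit often used to detect the assembled complex, had 16, 20.1 and 15.1 CPM in UVB-hCOL3A1 libraries and 14.3, 12.9 and 12.9 CPM in NoUVB libraries, which did not overlap (log2 difference 0.36 ± 0.15, adjusted p = 0.378). Ndufa9, at the junction of the 2 arms, had 10.6, 10.8 and 9.32 CPM in UVB-Saline libraries and 6.53, 9.38 and 7.02 CPM in NoUVB libraries, which overlapped (0.41 ± 0.17, adjusted p = 0.491). Ndufb5, a membrane arm subunit, was also higher in UVB-Saline than in NoUVB skin by 0.33 ± 0.17, with overlap and adjusted p = 0.577.

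Complex I rows below 0 numbered 16 of 41 in UVB-hCOL3A1 against UVB-Saline skin, 14 in UVB-Saline against NoUVB skin and 5 in UVB-hCOL3A1 against NoUVB skin. Ndufa6, an accessory subunit of the matrix arm, had 21.1, 17.8 and 17.5 CPM in UVB-Saline libraries and 22.3, 21.9 and 22.7 CPM in NoUVB libraries (-0.25 ± 0.12, adjusted p = 0.549). Its NoUVB libraries also lay above all 3 UVB-hCOL3A1 libraries, which had 18.4, 19.9 and 21.4 CPM (-0.17 ± 0.12, adjusted p = 0.62). Ndufs1, the largest subunit, which carries iron-sulfur clusters, differed by -0.13 ± 0.096 between UVB-hCOL3A1 and UVB-Saline skin, with overlap and adjusted p = 0.646.

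Ndufs5, an accessory subunit that faces the intermembrane space, had the smallest p of the 87 rows in UVB-Saline against NoUVB skin. It had 14.6, 18.5 and 13.4 CPM in UVB-hCOL3A1 libraries, 11.4, 10.9 and 9.54 CPM in UVB-Saline libraries and 14.6, 21.3 and 16 CPM in NoUVB libraries. The UVB-Saline libraries lay below all the others. The log2 difference was 0.55 ± 0.18 in UVB-hCOL3A1 against UVB-Saline skin, adjusted p = 0.319, and -0.71 ± 0.18 in UVB-Saline against NoUVB skin, adjusted p = 0.302.

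Ndufs5 shares its sequence with the processed pseudogene row Ndufs5-ps, so its estimated counts depend on how reads were split between the pair. In GENCODE M21 (GRCm38) the pseudogene transcript, on chromosome 16, matched that of Ndufs5, on chromosome 4, at 317 of 319 bases (99.4%), with a shared run of 214 bases. Positions 26 to 105 of the alignment are shown because they hold both differing bases, in capitals.
Ndufs5: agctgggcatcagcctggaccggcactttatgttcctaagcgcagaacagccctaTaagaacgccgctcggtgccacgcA
Ndufs5-ps: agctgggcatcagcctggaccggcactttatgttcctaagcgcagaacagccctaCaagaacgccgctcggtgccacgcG

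Reads that lie within the copied part and miss both positions match both rows equally. Ndufs5-ps was listed at 5.11, 4.23 and 12.3 CPM in UVB-hCOL3A1 libraries, 4.31, 3.29 and 9.86 CPM in UVB-Saline libraries and 4.54, 0.893 and 4.9 CPM in NoUVB libraries, and the third UVB-hCOL3A1 and UVB-Saline libraries were high. With both rows counted as 1 gene, an alternative chosen after the data were seen, the sums were 19.7, 22.8 and 25.7 CPM in UVB-hCOL3A1 libraries, 15.7, 14.1 and 19.4 CPM in UVB-Saline libraries and 19.2, 22.2 and 20.9 CPM in NoUVB libraries. The log2 difference was then 0.47 in UVB-hCOL3A1 against UVB-Saline skin, adjusted p = 0.305, and -0.34 in UVB-Saline against NoUVB skin, adjusted p = 0.512, which is nearer to 0 than the value for Ndufs5 alone.

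**Figure D3:**
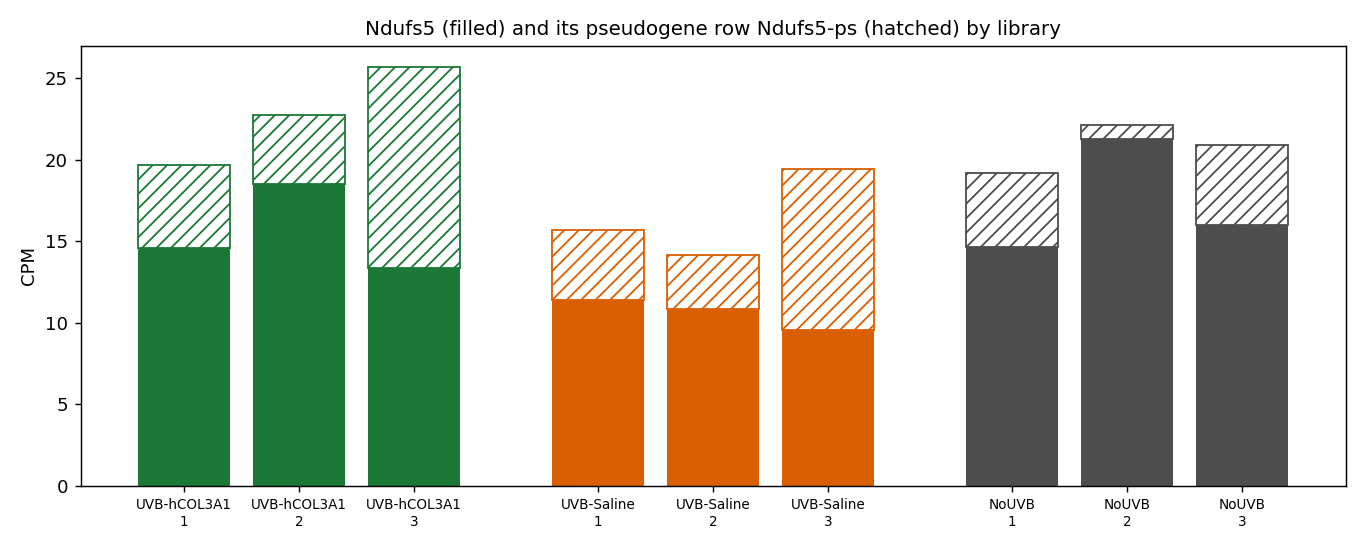
CPM (y axis, from 0) of Ndufs5 (filled) and of its pseudogene row Ndufs5-ps (hatched, stacked on top) in each library. The filled bars of UVB-Saline skin (9.54 to 11.4 CPM) are shorter than all others, while the stacked height of UVB-Saline 3 (19.4 CPM) reaches the NoUVB libraries.

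The same limit holds for other copies. Ndufb4c, annotated as a processed pseudogene, matched Ndufb4 at all of its 390 bases, Ndufa12-ps matched Ndufa12 at 99.5% and Atp5pb-ps matched Atp5pb at 98.7%. The 3 rows named -ps that passed the filter, Ndufs5-ps, Ndufa12-ps and Atp5pb-ps, are counted among the 87, and without them the medians were 0.067, 0.065 and 0.14 in UVB-hCOL3A1 against UVB-Saline, UVB-Saline against NoUVB and UVB-hCOL3A1 against NoUVB skin.

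Ndufa4 and Ndufa4l2 carry the names of complex I subunits, although Ndufa4 is now regarded as a component of complex IV, and Ndufa4l2 is known as a hypoxia-inducible relative that restrains complex I activity. Ndufa4 had 24.6, 31.3 and 27.6 CPM in UVB-hCOL3A1 libraries, 25.5, 24.5 and 37.9 CPM in UVB-Saline libraries and 18.7, 20.6 and 29.5 CPM in NoUVB libraries, which overlapped throughout. Its log2 difference was -0.071 ± 0.21 in UVB-hCOL3A1 against UVB-Saline skin, 0.34 ± 0.21 in UVB-Saline against NoUVB skin and 0.27 ± 0.21 in UVB-hCOL3A1 against NoUVB skin, with adjusted p of 0.934, 0.657 and 0.658.

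Ndufa4l2 had 9.83, 10.3 and 11.9 CPM in UVB-hCOL3A1 libraries, 12.5, 19.7 and 9.97 CPM in UVB-Saline libraries and 17.6, 20.6 and 16.7 CPM in NoUVB libraries. All UVB-hCOL3A1 libraries lay below all NoUVB libraries, and UVB-Saline overlapped both. The log2 difference in UVB-hCOL3A1 against NoUVB skin was -0.79 ± 0.22 (95% interval -1.28 to -0.29), adjusted p = 0.218. Against UVB-Saline skin it was -0.41 ± 0.23, adjusted p = 0.518, and it came to -0.068 without UVB-Saline 2. In UVB-Saline against NoUVB skin it was -0.37 ± 0.22, adjusted p = 0.64, and it came to -0.71 without UVB-Saline 2 and -0.19 without UVB-Saline 3. Per length of transcript, Ndufa4l2 made up 16.4%, 13.9% and 17.5% of the pair in UVB-hCOL3A1 libraries, 19.5%, 28.4% and 11.5% in UVB-Saline libraries and 31.6%, 33% and 21.8% in NoUVB libraries.

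Complex II is both a citric acid cycle enzyme and an entry point for electrons, and its 4 subunits are all nuclear. Their sums were 89.1, 94.9 and 93.3 CPM in UVB-hCOL3A1 libraries, 79.5, 78.8 and 89.1 CPM in UVB-Saline libraries and 76.1, 81.8 and 79.3 CPM in NoUVB libraries. The mean of UVB-hCOL3A1 skin was 16.9% above NoUVB skin, without overlap, and 12.1% above UVB-Saline skin, where the lowest UVB-hCOL3A1 library had 89.05 CPM and the highest UVB-Saline library 89.11 CPM.

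Sdhc, a membrane anchor, had 15, 16.2 and 18.8 CPM in UVB-hCOL3A1 libraries, 13.6, 12.5 and 18.2 CPM in UVB-Saline libraries and 9.94, 11.7 and 12.8 CPM in NoUVB libraries. Its difference was 0.53 ± 0.17 in UVB-hCOL3A1 against NoUVB skin, adjusted p = 0.276, without overlap, 0.35 ± 0.17 in UVB-Saline against NoUVB skin, adjusted p = 0.57, and 0.18 ± 0.17 in UVB-hCOL3A1 against UVB-Saline skin, adjusted p = 0.739. Sdha, the flavoprotein that oxidises succinate, had 39, 39 and 40.8 CPM in UVB-hCOL3A1 libraries, 34.2, 37.7 and 36.5 CPM in UVB-Saline libraries and 38.4, 36.7 and 33.7 CPM in NoUVB libraries. The UVB-hCOL3A1 libraries of Sdha lay above both other groups by 0.13 ± 0.091 each, with adjusted p of 0.629 against UVB-Saline and 0.626 against NoUVB skin, and UVB-Saline differed from NoUVB skin by -0.002 ± 0.092.

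Sdhb, the iron-sulfur subunit, differed by 0.22 ± 0.14 in UVB-hCOL3A1 against UVB-Saline skin and 0.21 ± 0.14 in UVB-hCOL3A1 against NoUVB skin, with adjusted p of 0.601 and 0.594, and by -0.0022 ± 0.14 between UVB-Saline and NoUVB skin. Sdhd, the other anchor, differed by 0.15 ± 0.19, 0.017 ± 0.2 and 0.17 ± 0.2 in UVB-hCOL3A1 against UVB-Saline, UVB-Saline against NoUVB and UVB-hCOL3A1 against NoUVB skin. Its groups overlapped in each, with adjusted p of 0.814 or above in the first 2 and 0.777 in the last.

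Complex III, the cytochrome bc1 complex, had 8 rows, all tested. They summed to 215, 259 and 234 CPM in UVB-hCOL3A1 libraries, 218, 219 and 226 CPM in UVB-Saline libraries and 209, 226 and 212 CPM in NoUVB libraries, and the groups overlapped. The median log2 difference was 0.011 in UVB-hCOL3A1 against UVB-Saline skin, 0.085 in UVB-Saline against NoUVB skin and 0.15 in UVB-hCOL3A1 against NoUVB skin.

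Uqcrfs1, the Rieske iron-sulfur protein that hands electrons to cytochrome c1, was higher in both irradiated groups. It had 10.1, 10.6 and 11.7 CPM in UVB-hCOL3A1 libraries, 9.96, 12 and 12.6 CPM in UVB-Saline libraries and 7.67, 9.38 and 8.46 CPM in NoUVB libraries. The NoUVB libraries lay below both other groups, with differences of 0.43 ± 0.15 for UVB-Saline, adjusted p = 0.419, and 0.34 ± 0.15 for UVB-hCOL3A1 skin, adjusted p = 0.408.

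Uqcr10, a small subunit next to the Rieske protein, had 15.5, 19.7 and 16.5 CPM in UVB-hCOL3A1 libraries, 12.7, 13.6 and 14.6 CPM in UVB-Saline libraries and 13.9, 13.1 and 14.9 CPM in NoUVB libraries. The UVB-hCOL3A1 libraries lay above both groups (0.33 ± 0.13 against UVB-Saline skin, adjusted p = 0.382, and 0.3 ± 0.13 against NoUVB skin, adjusted p = 0.406). Uqcrb, a ubiquinone-binding subunit, had 39.3, 57.6 and 41.6 CPM in UVB-hCOL3A1 libraries and 40.8, 35.2 and 31.5 CPM in UVB-Saline libraries (0.36 ± 0.16, adjusted p = 0.433), with overlap. In UVB-Saline against NoUVB skin Uqcrb differed by -0.22 ± 0.16 (adjusted p = 0.715).

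Of the other rows of complex III named by the rule for small p, Uqcrc1, a core protein, was higher by 0.19 ± 0.097 in UVB-Saline than in NoUVB skin, without overlap, adjusted p = 0.592. Uqcrh, the hinge protein that binds cytochrome c1, differed by -0.15 ± 0.12 in UVB-Saline against NoUVB skin and by -0.1 ± 0.12 in UVB-hCOL3A1 against NoUVB skin, with adjusted p of 0.724 and 0.778. Uqcrq differed by -0.092 ± 0.11 in UVB-hCOL3A1 against UVB-Saline skin, adjusted p = 0.809.

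Complex IV, cytochrome c oxidase, had 15 tested rows that summed to 296, 381 and 322 CPM in UVB-hCOL3A1 libraries, 312, 315 and 317 CPM in UVB-Saline libraries and 290, 318 and 319 CPM in NoUVB libraries. The groups overlapped in all comparisons. The median log2 difference was 0.035 in UVB-hCOL3A1 against UVB-Saline skin, 0.032 in UVB-Saline against NoUVB skin and 0.075 in UVB-hCOL3A1 against NoUVB skin, whereas single rows lay farther from 0. In both comparisons of UVB-hCOL3A1 skin the highest rows were Cox8b and Cox6a2 and the lowest Cox6b2, and in UVB-Saline against NoUVB skin the highest was Cox5a and the lowest Cox4i2.

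Cox5a, a ubiquitous subunit of the matrix side, was higher in both irradiated groups. It had 9, 9.41 and 8.31 CPM in UVB-hCOL3A1 libraries, 8.52, 9.45 and 8.46 CPM in UVB-Saline libraries and 7.39, 5.98 and 5.19 CPM in NoUVB libraries. No irradiated library lay below a NoUVB library. The differences were 0.54 ± 0.16 in UVB-hCOL3A1 and 0.52 ± 0.17 in UVB-Saline against NoUVB skin, with adjusted p of 0.247 and 0.373. Cox7a2l, a subunit known for joining complexes III and IV, was lower in UVB-Saline than in NoUVB skin by 0.18 on the log2 scale (-0.18 ± 0.11, adjusted p = 0.645), without overlap.

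The muscle forms of 3 subunits, Cox8b, Cox6a2 and Cox7a1, had their highest levels in UVB-hCOL3A1 skin, while their ubiquitous partners showed no group difference larger than the spread between libraries. Cox8b had 2.52, 3.39 and 2.81 CPM in UVB-hCOL3A1 libraries, 0.924, 1.56 and 1.95 CPM in UVB-Saline libraries and 1.14, 1.07 and 0.962 CPM in NoUVB libraries. These rest on 33, 36 and 26 counts in UVB-hCOL3A1 libraries, 9, 19 and 18 in UVB-Saline libraries and 8, 12 and 10 in NoUVB libraries. The UVB-hCOL3A1 libraries lay above all others, and UVB-Saline overlapped NoUVB.

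The log2 difference of Cox8b was 1.45 ± 0.32 in UVB-hCOL3A1 against NoUVB skin (95% interval 0.74 to 2.16), adjusted p = 0.147, the smallest of the 87 rows in that comparison. It was 0.96 ± 0.3 in UVB-hCOL3A1 against UVB-Saline skin, adjusted p = 0.305, and 0.49 ± 0.34 in UVB-Saline against NoUVB skin, adjusted p = 0.701. With 1 library left out at a time, the first difference was 1.33 to 1.56, and it passed the threshold without UVB-Saline 3, where the spread is estimated from the other 8 libraries (adjusted p = 0.048). It was the 1 row of the 87 that passed under any alternative.

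Cox6a2 had 3.97, 3.57 and 5.07 CPM in UVB-hCOL3A1 libraries, 0.924, 3.04 and 2.93 CPM in UVB-Saline libraries and 1.7, 2.23 and 1.25 CPM in NoUVB libraries. The UVB-hCOL3A1 libraries again lay above all others, and UVB-Saline 1 was the lowest of the 9. The log2 difference was 1.27 ± 0.4 in UVB-hCOL3A1 against NoUVB skin, adjusted p = 0.266, 0.85 ± 0.38 in UVB-hCOL3A1 against UVB-Saline skin, adjusted p = 0.44, and 0.41 ± 0.42 in UVB-Saline against NoUVB skin, adjusted p = 0.805. Without UVB-Saline 1 the UVB-hCOL3A1 to UVB-Saline difference was 0.49 and the UVB-Saline to NoUVB difference 0.78.

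Cox7a1 had 15, 11 and 7 estimated counts in UVB-hCOL3A1 libraries, 2, 2 and 8 in UVB-Saline libraries and 3, 4 and 3 in NoUVB libraries, too few for the filter. With no filter its log2 difference was 1.47 ± 0.65 in UVB-hCOL3A1 against NoUVB skin, adjusted p = 0.583, and 1.3 ± 0.63 in UVB-hCOL3A1 against UVB-Saline skin, adjusted p = 0.7, where the groups overlapped.

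The ubiquitous partners were far more abundant. Cox8a had 26.5, 43.3 and 30.2 CPM in UVB-hCOL3A1 libraries, 33.4, 33 and 31.8 CPM in UVB-Saline libraries and 30.1, 36.2 and 29.6 CPM in NoUVB libraries. Its differences were 0.025 ± 0.17 in UVB-hCOL3A1 against UVB-Saline, 0.032 ± 0.17 in UVB-Saline against NoUVB and 0.057 ± 0.17 in UVB-hCOL3A1 against NoUVB skin. Cox6a1 differed by 0.16 ± 0.17, 0.01 ± 0.18 and 0.17 ± 0.17, and Cox7a2 by -0.031 ± 0.15, 0.11 ± 0.16 and 0.075 ± 0.16, in the same order of comparisons. All adjusted p of these 3 partners were 0.749 or above.

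Per length of transcript, Cox8b made up 12.7%, 10.7% and 12.4% of Cox8b plus Cox8a in UVB-hCOL3A1 libraries, 4.06%, 6.73% and 8.58% in UVB-Saline libraries and 5.45%, 4.33% and 4.73% in NoUVB libraries. The UVB-hCOL3A1 shares lay above all others. Cox6a2 made up 12.5%, 7.53% and 15.8% of Cox6a2 plus Cox6a1 in UVB-hCOL3A1 libraries, 2.82%, 10.1% and 9.04% in UVB-Saline libraries and 5.42%, 6.79% and 4.37% in NoUVB libraries, where UVB-hCOL3A1 and UVB-Saline overlapped.

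Markers of skeletal muscle moved with these isoforms in part. The 18 markers, none of them listed at 0 in every library, summed to 4152, 4562 and 6193 CPM in UVB-hCOL3A1 libraries, 970, 3862 and 2906 CPM in UVB-Saline libraries and 4972, 1708 and 1610 CPM in NoUVB libraries. UVB-hCOL3A1 libraries lay above all UVB-Saline libraries, with 17 of 18 markers positive, a median log2 difference of 1.1, 0 called by edgeR and 4 at an unadjusted p under 0.05. Against NoUVB skin the marker sums overlapped, with 17 of 18 markers again positive in UVB-hCOL3A1 skin, a median log2 difference of 0.91, 0 called by edgeR and 2 at an unadjusted p under 0.05. Ttn, the gene of titin, made up most of the sum in every library, with 3091 of 4972 CPM in NoUVB 1. NoUVB 1, whose marker sum was within the UVB-hCOL3A1 range, had 1.14 CPM of Cox8b and 1.7 CPM of Cox6a2. Among the markers, Acta1, skeletal actin, had 212, 310 and 394 CPM in UVB-hCOL3A1 libraries, 68.5, 183 and 139 CPM in UVB-Saline libraries and 216, 68 and 73.3 CPM in NoUVB libraries. Myh4, another of the markers, had 23, 53.8 and 9.39 CPM in UVB-hCOL3A1, 1.64, 45.5 and 51.5 CPM in UVB-Saline and 110.5, 42.8 and 19.9 CPM in NoUVB libraries. Cox8b and Cox7a1 are also known from brown fat. Its 4 markers summed to 6.91 to 8.66 CPM in UVB-hCOL3A1, 6.98 to 8.13 CPM in UVB-Saline and 7.24 to 10.3 CPM in NoUVB libraries. Among them, Ucp1 was listed at 0 in 7 of 9 libraries and at most at 0.493 CPM. Kcnk3 had 1.14, 2.54 and 1.73 CPM in UVB-hCOL3A1 libraries, 0.616, 1.07 and 0.976 CPM in UVB-Saline libraries and 1.42, 2.05 and 0.385 CPM in NoUVB libraries, and Dio2 was at 4.96 to 7.86 CPM. The part of muscle or brown fat content in the isoform differences was not tested.

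**Figure D4:**
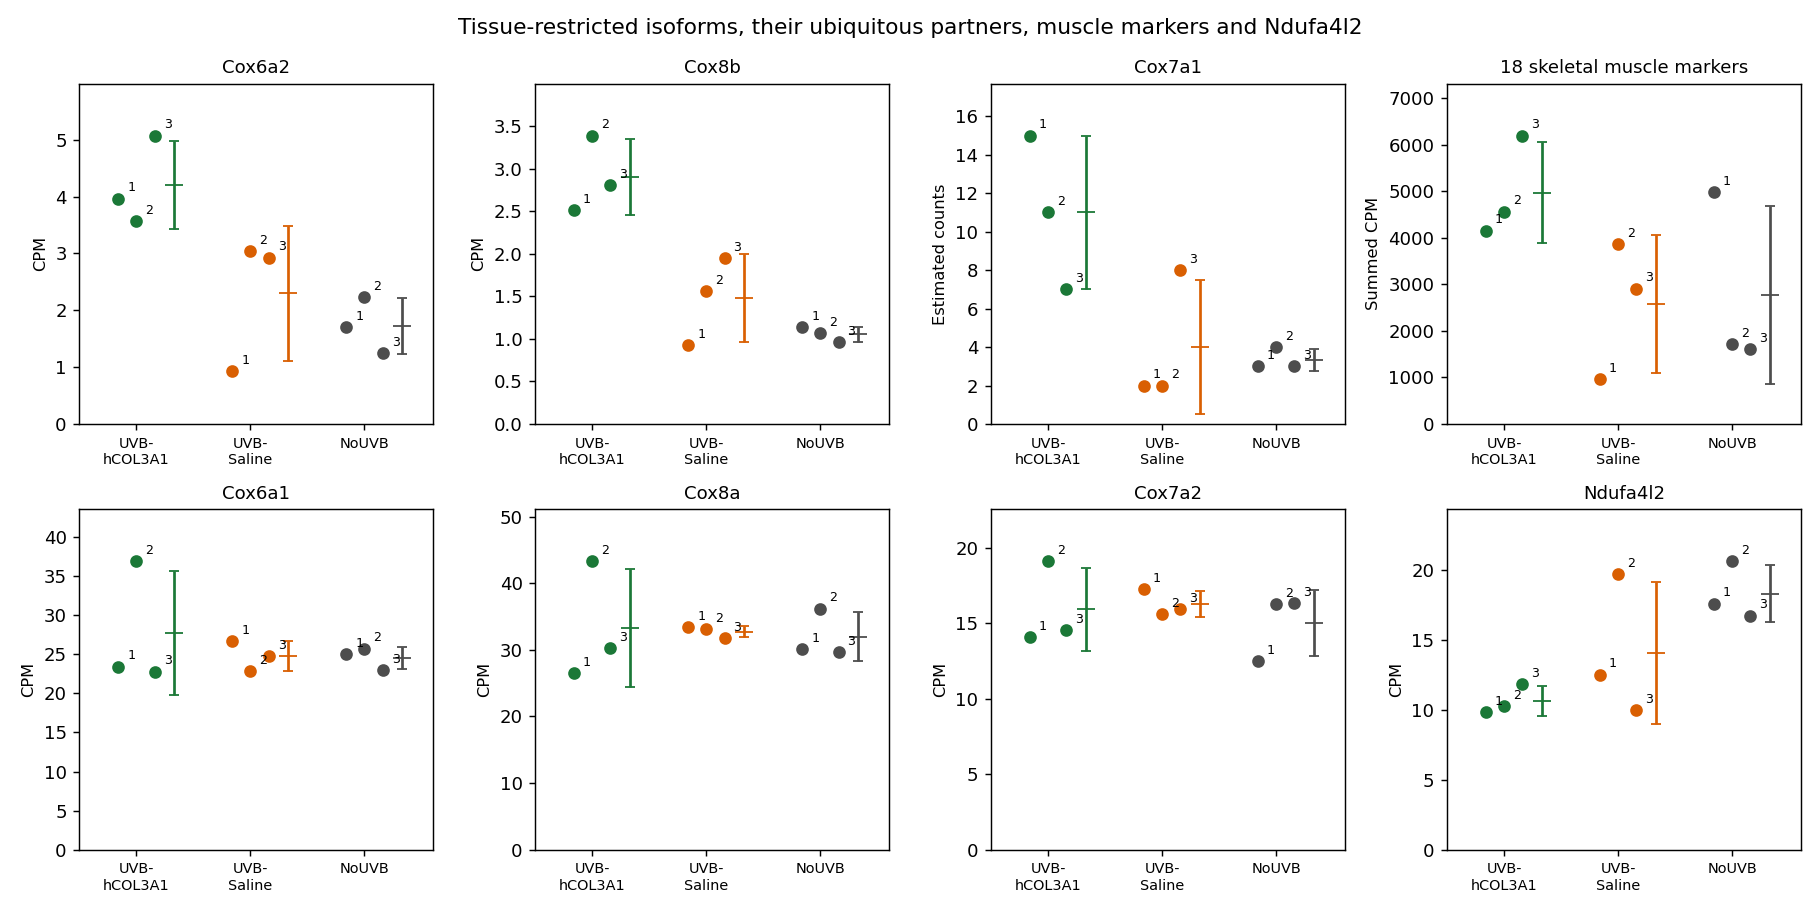
Level by library (numbered points, y axes from 0) with the mean ± SD of each group (n = 3) for the muscle forms Cox6a2 and Cox8b (CPM) and Cox7a1 (estimated counts), the summed CPM of 18 skeletal muscle markers, the ubiquitous partners Cox6a1, Cox8a and Cox7a2 (CPM), and Ndufa4l2 (CPM). Cox8b in UVB-hCOL3A1 skin (2.52 to 3.39 CPM) lies above the other groups, and Ndufa4l2 is lowest in UVB-hCOL3A1 skin. NoUVB 1 is high for the summed muscle markers (4972 CPM, mostly Ttn) and not for Cox8b.

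The promoters of these pairs differ in their content of CG dinucleotides, a feature of genes active in most tissues. The 200 bases before the start site in RefSeq (GRCm38.p6) are shown for both pairs that the table of promoters held, read in the direction of the transcript and with every CG in capitals: Cox8b (chr7:140900447-140900646, minus strand), Cox8a (chr19:7217617-7217816, minus strand), Cox7a1 (chr7:30183971-30184170, plus strand) and Cox7a2 (chr9:79759854-79760053, minus strand).
Cox8b: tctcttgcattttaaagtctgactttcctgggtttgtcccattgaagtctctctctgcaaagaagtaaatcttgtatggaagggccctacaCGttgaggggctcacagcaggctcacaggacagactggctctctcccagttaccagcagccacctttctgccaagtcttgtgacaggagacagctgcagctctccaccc
Cox8a: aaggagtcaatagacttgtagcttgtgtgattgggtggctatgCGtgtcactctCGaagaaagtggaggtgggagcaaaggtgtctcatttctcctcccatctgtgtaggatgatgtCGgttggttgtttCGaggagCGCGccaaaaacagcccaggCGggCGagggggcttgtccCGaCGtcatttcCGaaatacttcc
Cox7a1: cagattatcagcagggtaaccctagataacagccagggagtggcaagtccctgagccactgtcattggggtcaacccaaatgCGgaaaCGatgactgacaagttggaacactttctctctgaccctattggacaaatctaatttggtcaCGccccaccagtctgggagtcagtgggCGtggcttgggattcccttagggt
Cox7a2: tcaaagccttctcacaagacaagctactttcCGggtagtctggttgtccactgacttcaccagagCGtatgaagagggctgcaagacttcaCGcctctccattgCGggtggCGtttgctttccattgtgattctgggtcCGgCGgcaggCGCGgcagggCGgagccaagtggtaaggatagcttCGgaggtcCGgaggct

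Cox8b held 1 CG and Cox8a 11, and Cox7a1 held 4 and Cox7a2 12. The median was 12 over the 55 promoters of the subunit genes and 5 over all 32851 promoters. The Cox8b window also held the E-box CAGCTG, a motif bound by myogenic factors, once, shortly before the start, whereas the Cox7a1 window did not hold it. On either strand, 5 of the 53 tested subunit genes with a promoter (9.43%) and 12.4% of all 27025 genes held that motif.

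Over the 53 tested subunit symbols with a promoter in the table, the motif of NRF1 (GCGC, any base, then TGCGC, either strand), a known regulator of respiratory genes, was found in 9, or 17%, where 3.97% of all genes held it. The ETS motif CCGGAAG, which GABP binds, was found in 7, or 13.2%, where 7.15% of all genes held it. Both motifs contain CG, and the subunit promoters held a median of 12 CG against 5 over all promoters. The part of CG content in these shares was not tested. The ERR motif AAGGTCA was found in 2 (3.69% of all genes) and the TATA motif TATAAA in 3 (11.7% of all genes). The YY1 motif AAGATGGC was found in 0 (1.4% of all genes) and the MEF2 motif (CTA, 4 bases of any kind, then TAG) in 1 (2.89% of all genes). A match describes these letters in this window and is not a binding site.

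The remaining isoform pairs of complex IV gave no group difference beyond the spread. Cox4i2, the form known from lung and responsive to oxygen, had 0.915, 1.22 and 0.864 CPM in UVB-hCOL3A1 libraries, 1.437, 0.658 and 0.65 CPM in UVB-Saline libraries and 1.7, 2.05 and 0.77 CPM in NoUVB libraries. Its difference was -0.58 ± 0.46 in UVB-hCOL3A1 against NoUVB skin, -0.72 ± 0.47 in UVB-Saline against NoUVB skin and 0.14 ± 0.48 in UVB-hCOL3A1 against UVB-Saline skin, with adjusted p of 0.662, 0.671 and 0.945. Its partner Cox4i1 was between 39.8 and 52.6 CPM in all 9 libraries, with differences of 0.12 ± 0.12, 0.035 ± 0.12 and 0.15 ± 0.12 in UVB-hCOL3A1 against UVB-Saline, UVB-Saline against NoUVB and UVB-hCOL3A1 against NoUVB skin.

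Cox6b2, known as a testis form, was at 0.376 to 1.85 CPM, with a difference of -0.61 ± 0.46 in UVB-hCOL3A1 against NoUVB skin, adjusted p = 0.652, -0.48 ± 0.46 in UVB-hCOL3A1 against UVB-Saline skin, adjusted p = 0.745, and -0.13 ± 0.45 in UVB-Saline against NoUVB skin, adjusted p = 0.953. Its partner Cox6b1 had 29.2, 37.1 and 32.4 CPM in UVB-hCOL3A1 libraries, 33.6, 30.3 and 35.6 CPM in UVB-Saline libraries and 26.1, 32.2 and 28.8 CPM in NoUVB libraries, all overlapping. Cox7b had differences of -0.0068 ± 0.13, 0.028 ± 0.13 and 0.021 ± 0.13 in the comparisons in that order of UVB-hCOL3A1 against UVB-Saline, UVB-Saline against NoUVB and UVB-hCOL3A1 against NoUVB skin.

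Complex V, the ATP synthase, has a catalytic head, a membrane rotor of c subunits and a peripheral stalk. Its 19 tested rows summed to 790, 900 and 808 CPM in UVB-hCOL3A1 libraries, 826, 794 and 802 CPM in UVB-Saline libraries and 759, 778 and 765 CPM in NoUVB libraries. Both irradiated groups lay above all NoUVB libraries, with means 8.51% higher in UVB-hCOL3A1 and 5.19% higher in UVB-Saline skin, and they overlapped each other. The median log2 difference was 0.015 in UVB-hCOL3A1 against UVB-Saline skin (12 of 19 positive), 0.12 in UVB-Saline against NoUVB skin (13 of 19) and 0.12 in UVB-hCOL3A1 against NoUVB skin (16 of 19).

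In the peripheral stalk, Atp5pf (subunit F6) had 14.5, 11.1 and 11.2 CPM in UVB-hCOL3A1 libraries, 11.2, 12.6 and 12.8 CPM in UVB-Saline libraries and 7.1, 8.84 and 10 CPM in NoUVB libraries. Both irradiated groups lay above NoUVB, by 0.5 ± 0.17 in UVB-hCOL3A1 skin, adjusted p = 0.296, and 0.48 ± 0.17 in UVB-Saline skin, adjusted p = 0.421. Atp5pb (subunit b) had 42.6, 50.1 and 44.4 CPM in UVB-hCOL3A1 libraries, 36.7, 36.9 and 40 CPM in UVB-Saline libraries and 34.4, 38 and 39.3 CPM in NoUVB libraries. Its UVB-hCOL3A1 libraries lay above both groups, by 0.27 ± 0.1 against UVB-Saline skin, adjusted p = 0.37, and 0.29 ± 0.1 against NoUVB skin, adjusted p = 0.299, and its pseudogene row Atp5pb-ps was at 0.493 to 2.36 CPM (-0.25 ± 0.57 in UVB-hCOL3A1 against NoUVB skin). Atp5pd (subunit d) differed by -0.15 ± 0.097 in UVB-Saline against NoUVB skin, adjusted p = 0.672.

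Atp5mj, a small subunit of the membrane part, stood highest in UVB-Saline skin. It had 4.88, 5.74 and 4.86 CPM in UVB-hCOL3A1 libraries, 5.95, 6.99 and 7.59 CPM in UVB-Saline libraries and 5.11, 4.38 and 5.48 CPM in NoUVB libraries. UVB-Saline lay above both groups, with -0.41 ± 0.18 in UVB-hCOL3A1 against UVB-Saline skin, adjusted p = 0.427, and 0.46 ± 0.18 in UVB-Saline against NoUVB skin, adjusted p = 0.467. Atp5f1e, the epsilon subunit of the head, likewise had lower values in all UVB-hCOL3A1 libraries (7.7, 8 and 7.45 CPM) than in UVB-Saline libraries (8.42, 9.45 and 8.35 CPM), by -0.18 ± 0.14, adjusted p = 0.666.

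Atp5f1c, the gamma subunit that turns within the head, had 51.9, 61.4 and 46.74 CPM in UVB-hCOL3A1 libraries and 44.9, 43.9 and 46.72 CPM in UVB-Saline libraries, a difference of 0.24 ± 0.11, adjusted p = 0.435, with the nearest libraries of the groups almost level. Atp5mc3, a c-ring subunit, differed by -0.16 ± 0.14 in UVB-Saline against NoUVB skin and -0.062 ± 0.14 in UVB-hCOL3A1 against NoUVB skin, with overlap. Atp5if1, the inhibitor that stops ATP hydrolysis when the membrane potential fails, was at 61.8 to 77.2 CPM in the 9 libraries. Its differences were 0.11 ± 0.092 in UVB-hCOL3A1 against UVB-Saline skin, -0.055 ± 0.092 in UVB-Saline against NoUVB skin and 0.059 ± 0.092 in UVB-hCOL3A1 against NoUVB skin, with adjusted p of 0.68, 0.892 and 0.843.

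Levels compared per length ranged over more than an order of magnitude within the set. Over all 9 libraries, the highest per kilobase of transcript were Atp5if1 (139 CPM per kb), Atp5pd (91.8), the catalytic subunit Atp5f1b (81.3), Uqcrh (79.8), the c-ring subunit Atp5mc3 (77.8) and Uqcrb (77.1). In complex I the highest were Ndufa4 (58.1) and Ndufa6 (53.2) and in complex IV Cox6b1 (65.2) and Cox4i1 (60.6), and in complex II Sdhb (21.1) and Sdha (12.9). The lowest were Cox4i2 (1.56), Cox6b2 (2.3), Atp5mc1 (3.33) and Ndufc1 (3.75). Atp5mc1 had 8.9 CPM, and its place rests on an annotated length of 2675.5 bases, where Atp5mc2 has 586 and Atp5mc3 718.5. Transcript length went with level per length at Spearman's rho of -0.33 over the 82 tested subunit rows with a length, a description that depends on the annotated lengths. The level was divided by that same length, so a negative rho can arise from the division alone. Before division the median CPM was 12.6, 17.9, 15.7, 15 and 33.9 in classes of rising length, with limits at 500, 700, 1000 and 1500 bases.

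The subunits encoded by mitochondrial DNA stood apart from their nuclear partners in direction. The 13 genes summed to 16040, 22520 and 18150 CPM in UVB-hCOL3A1 libraries, 28900, 18080 and 26100 CPM in UVB-Saline libraries and 25710, 34940 and 29380 CPM in NoUVB libraries. In UVB-hCOL3A1 against NoUVB skin 11 of 13 were lower, with a median log2 difference of -0.74, 0 called by edgeR and 9 at an unadjusted p under 0.05 (5.52% of all genes), and the sums did not overlap. In UVB-hCOL3A1 against UVB-Saline skin 11 of 13 were lower, with a median of -0.41 and 5 at that level (5.32% of all genes). In UVB-Saline against NoUVB skin 11 of 13 were lower, with a median of -0.23 and 0 at that level (4.6% of all genes). The sums overlapped in both of these, and edgeR called 0. The 13 include rows with erratic values, since mt-Co2 and mt-Nd3 were each listed at 0 in 6 of 9 libraries and mt-Co3 had 155, 60.9 and 0.108 CPM in UVB-hCOL3A1 libraries, 133, 160 and 0.108 CPM in UVB-Saline libraries and 0.142, 229.9 and 62.5 CPM in NoUVB libraries. The sum is mostly of other rows, such as mt-Co1 with 6880 to 13260 CPM. The sum of the 13 divided by that of the 87 nuclear rows was 8.04, 9.68 and 8.63 in UVB-hCOL3A1 libraries, 14.3, 9.06 and 12.7 in UVB-Saline libraries and 13.3, 17.5 and 14.9 in NoUVB libraries. NoUVB 2, the highest, was also the library with the least Rn18s-rs5, whose part in the ratio was not tested.

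**Figure D5:**
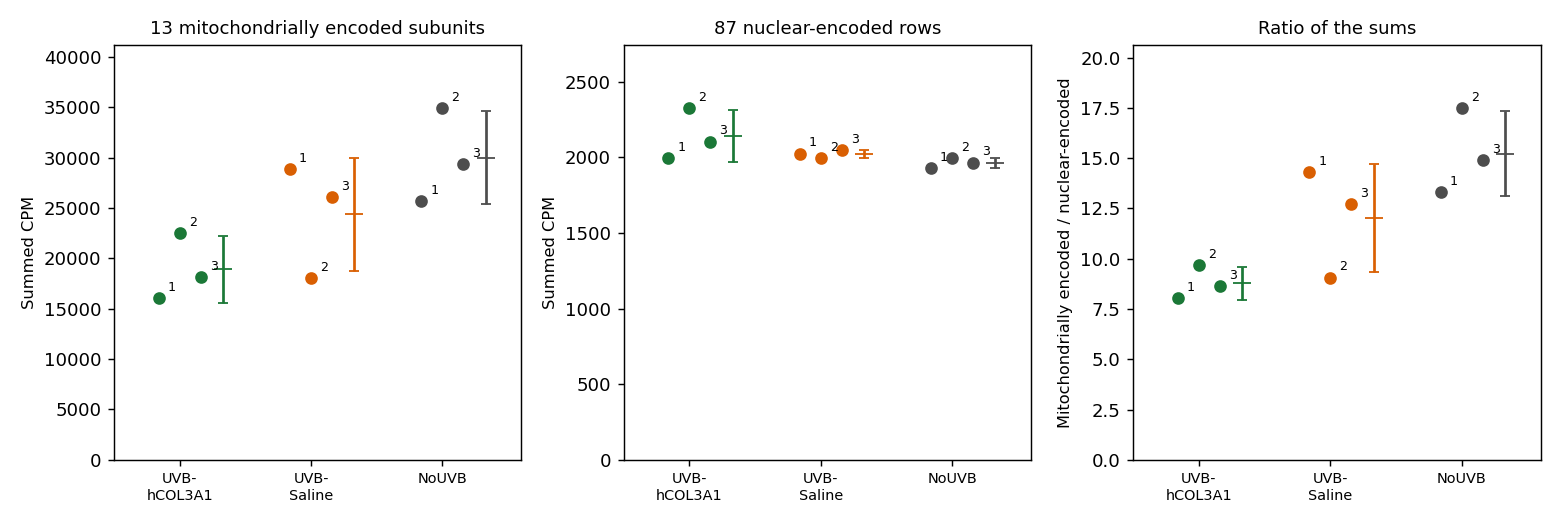
Summed CPM of the 13 mitochondrially encoded subunits, summed CPM of the 87 nuclear-encoded rows, and the ratio of these sums (y axes, from 0) by library (numbered points) with the mean ± SD of each group (n = 3). The ratio is 8.04 to 9.68 in UVB-hCOL3A1 skin and 13.3 to 17.5 in NoUVB skin, while the nuclear sums of these groups, 1994 to 2327 CPM and 1928 to 1996 CPM, lie close together.

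Other genes of the pathway, grouped in lists, also gave 0 called genes in each comparison by edgeR, with at most 3 genes of a list in 1 direction at an unadjusted p under 0.05. The 44 assembly factors had median log2 differences of 0.037 in UVB-hCOL3A1 against UVB-Saline, 0.12 in UVB-Saline against NoUVB and 0.1 in UVB-hCOL3A1 against NoUVB skin. Cox20, which chaperones a mitochondrially encoded subunit of complex IV, had the smallest p of these, with 0.69 ± 0.18 in both irradiated groups against NoUVB skin (adjusted p = 0.181 for UVB-hCOL3A1 and 0.305 for UVB-Saline). Of the 17 carriers and subunits outside the name pattern, 14 were higher in UVB-Saline than in NoUVB skin, with a median of 0.17. Cyc1, cytochrome c1, had a difference of 0.35 ± 0.13 there, adjusted p = 0.447, and -0.32 ± 0.13 in UVB-hCOL3A1 against UVB-Saline skin, adjusted p = 0.404. The 79 tested mitochondrial ribosomal protein genes had medians of 0.057, 0.053 and 0.1 in UVB-hCOL3A1 against UVB-Saline, UVB-Saline against NoUVB and UVB-hCOL3A1 against NoUVB skin, near those of the respiratory subunits.

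Of the metabolic lists, glycolysis had the largest medians against NoUVB skin. The 16 citric acid cycle genes had medians of 0.058, 0.069 and 0.099 in the comparisons of UVB-hCOL3A1 with UVB-Saline, UVB-Saline with NoUVB and UVB-hCOL3A1 with NoUVB skin. Sucla2, a subunit of succinyl-CoA ligase, had 0.36 ± 0.12 in the first, adjusted p = 0.318, and -0.32 ± 0.12 in the second, adjusted p = 0.444. The 14 glycolysis genes had medians of -0.027, 0.23 and 0.25 in the same comparisons, with 12 of 14 higher in either irradiated group than in NoUVB skin. The 11 fatty acid oxidation genes had medians of 0.093, 0.034 and 0.13, and the 6 mitochondrial antioxidant enzymes -0.034, 0.14 and 0.13. The 14 regulators of mitochondrial biogenesis had -0.11, 0.01 and 0.0051, and among them Gabpb1, a subunit of GABP, had -0.32 ± 0.13 in UVB-hCOL3A1 against UVB-Saline skin, adjusted p = 0.414, and 0.33 ± 0.14 in UVB-Saline against NoUVB skin, adjusted p = 0.492.

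Other cell types of skin differed between the groups in their marker sums, and their part in the subunit levels was not tested. The 12 white adipocyte markers summed to 1127 to 1882 CPM in UVB-hCOL3A1, 676 to 983 CPM in UVB-Saline and 888 to 2181 CPM in NoUVB libraries. The 7 fibroblast markers summed to 7108 to 8526, 5563 to 5971 and 5830 to 6981 CPM in the same order of groups, the 6 macrophage markers to 354 to 461, 152 to 368 and 237 to 255 CPM, and the 16 hair follicle markers to 2550 to 6250, 1237 to 8970 and 6176 to 11770 CPM. The fibroblast list includes Col3a1, the mouse gene of the collagen that the series title names. Col3a1 had 1814, 2006 and 1827 CPM in UVB-hCOL3A1, 1272, 1510 and 1433 CPM in UVB-Saline and 1172, 1201 and 1418 CPM in NoUVB libraries. Its part in the fibroblast sums was not tested. The 7 smooth muscle and pericyte markers summed to 381 to 479, 277 to 383 and 371 to 434 CPM, and all 7 were higher in UVB-hCOL3A1 than in UVB-Saline skin, with a median log2 difference of 0.23. The 7 basal keratinocyte markers summed to 2325 to 2843, 2380 to 4562 and 2582 to 2742 CPM, and the 8 suprabasal ones to 3839 to 5514, 4850 to 6700 and 2878 to 5266 CPM. All 7 and all 8 were lower in UVB-hCOL3A1 than in UVB-Saline skin, with medians of -0.26 and -0.38. Larger medians in that comparison were 0.85 for white adipocyte, 0.74 for macrophage and 0.42 for fibroblast markers, with all 12, all 6 and all 7 higher. Of the 16 hair follicle markers, 14 were lower there, with a median of -0.29. The 9 sebocyte markers summed to 1429 to 1978, 1397 to 1943 and 1252 to 1539 CPM, and the 5 blood endothelium markers to 182 to 241, 148 to 199 and 159 to 278 CPM. The 5 neutrophil markers summed to 21.6 to 41, 16.4 to 32.3 and 13.9 to 25.7 CPM, the 7 T and NK cell markers to 9.31 to 18.8, 7.9 to 25.7 and 7.5 to 11.5 CPM, and the 5 erythroid markers to 48 to 104, 39.1 to 91.3 and 31.8 to 81.4 CPM. No gene of these lists was called by edgeR in any comparison, and at most 7 of a list (the white adipocyte markers, lower in UVB-Saline than in NoUVB skin) were at an unadjusted p under 0.05 in 1 direction.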

How the data were processed

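RNA from 9 skin libraries, 3 per group, was sequenced as paired reads. Per the submitters' processing notes, the build was GRCm39 and the tools were RSEM 1.3.3, STAR 2.7.11b, DESeq2 1.44.0, Bowtie2 2.5.4 and fastp 0.23.4, with no role or order named. The sources used here name neither the annotation release nor the strand setting. The authors deposited 1 table of estimated counts per gene, not normalized, of which 11.1% to 14% of values per library were not whole. Estimated counts share reads among near-identical genes.

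Counts were rounded, and rows without a symbol held 0.0384% of them and stayed in the table. One edgeR 4.0.16 quasi-likelihood fit (R 4.3.3, limma 3.58.1) covered all 9 libraries with the group as its only term, after filterByExpr and TMM scaling, so all groups share 1 estimate of the spread. P-values were adjusted by Benjamini-Hochberg over 17168 genes. Intervals are the fitted difference ± its standard error times the t quantile at 95%. The script was tested on simulated data. Intervals cover no error in read assignment. Alternatives were DESeq2 1.42.0, voom, other scalings, other filters, a replicate block, leaving out Rn18s-rs5 and leaving out each library. Per-length levels used the median length of protein-coding transcripts in GENCODE M21. Promoters are from RefSeq (GRCm38.p6), matched by symbol for 53 of the 84 tested subunit rows. No 2 libraries of a group held identical values.

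The genes and lists were chosen with earlier results of these data known. Named whatever their values were the isoform pairs, the 4 Sdh subunits and Atp5if1, and per comparison, complex and direction the 2 rows with the smallest p. Ndufa4 and Ndufa4l2 were sorted into complex I by name.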

Additional observations from a re-analysis of the deposited data

How the results depend on the processing

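No member passed the threshold in any comparison under any alternative other than Cox8b in UVB-hCOL3A1 against NoUVB skin without UVB-Saline 3, so members called higher there ranged from 0 to 1. Cox8b and Cox6a2 had no adjusted p from DESeq2 in UVB-hCOL3A1 against UVB-Saline skin and could not pass there. The number of genes called overall did depend on the tool. Higher and lower calls in UVB-hCOL3A1 against UVB-Saline skin were 0 and 0 in the edgeR fit, 128 and 48 with DESeq2, 16 and 14 with library size alone, 74 and 32 without a filter, and 60 and 14 with a replicate block. For UVB-Saline against NoUVB skin they were 0 and 3, against 35 and 61, 61 and 39, 21 and 52, and 21 and 40 in the same order of settings, and 0 and 2 with voom. For UVB-hCOL3A1 against NoUVB skin they were 7 and 0, against 177 and 81, 115 and 44, 107 and 71, and 89 and 29, and 0 and 0 with voom. Leaving out 1 library gave 0 to 71 higher and 0 to 7 lower calls in UVB-hCOL3A1 against UVB-Saline skin, 0 to 7 and 0 to 5 in UVB-Saline against NoUVB skin, and 0 to 180 and 0 to 62 in UVB-hCOL3A1 against NoUVB skin.

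Scaling by library size alone moved the median of all genes to -0.12 in UVB-hCOL3A1 against NoUVB skin, and the median of the members to 0.022 from 0.15, which is 0.14 above all genes there and 0.16 above them with TMM. The other medians of the members moved by less than the spread between libraries (0.08 log2 units) under every alternative, but that spread is about as large as these medians. With library size alone they came to 0.011 from 0.081 in UVB-hCOL3A1 against UVB-Saline skin and to 0.0031 from 0.066 in UVB-Saline against NoUVB skin. They were then 0.098 and 0.043 above all genes, against 0.11 and 0.055 with TMM.

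Of 87 named differences, 63 kept their sign under all 18 alternatives, and the largest of the 24 that did not was 0.25 in size. With library size alone the values of UVB-Saline against NoUVB skin were -0.091 for Sdhd, -0.039 for Cox7b, -0.029 for Cox4i1, -0.054 for Cox8a and -0.056 for Cox6a1. Those of UVB-hCOL3A1 against NoUVB skin were -0.11 for Cox7b, -0.0703 for Cox7a2, -0.097 for Cox8a and -0.056 for Atp5if1, and Cox8a had -0.042 in UVB-hCOL3A1 against UVB-Saline skin. Sdha in UVB-Saline against NoUVB skin had 0.00083 without a filter and 0.0028 with voom, Sdhd there had -0.017 and, in UVB-hCOL3A1 against UVB-Saline skin, Cox8a had -0.012 with voom and Cox7b 0.0027 with DESeq2. The cause was not tested.

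Leaving out 1 library turned the sign of other small differences. The values ranged as follows in UVB-hCOL3A1 against UVB-Saline skin: Cox4i2 -0.053 to 0.60, Cox6a1 -0.099 to 0.31, Cox6b1 -0.11 to 0.093, Cox7a2 -0.18 to 0.076, Cox7b -0.11 to 0.092, Cox8a -0.21 to 0.19, Ndufa4 -0.17 to 0.18, Sdhd -0.011 to 0.36. The values ranged as follows in UVB-Saline against NoUVB skin: Cox4i1 -0.039 to 0.11, Cox6a1 -0.048 to 0.0597, Cox6b2 -0.33 to 0.25, Cox7a2 -0.014 to 0.16, Cox7b -0.077 to 0.14, Cox8a -0.033 to 0.13, Sdha -0.065 to 0.037, Sdhb -0.094 to 0.086, Sdhd -0.18 to 0.18. The values ranged as follows in UVB-hCOL3A1 against NoUVB skin: Atp5mc3 -0.15 to 0.081, Atp5pb-ps -1.11 to 0.094, Cox6a1 -0.089 to 0.31, Cox7a2 -0.076 to 0.17, Cox7b -0.083 to 0.15, Cox8a -0.18 to 0.22.

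The replicate numbers of the labels were not treated as pairs. Deviations of same-numbered libraries from their group means correlated at 0.018 to 0.41 over 9 pairs, 5 of them over 0.1. Those of differently numbered libraries of different groups correlated at -0.39 to 0.26 over 18 pairs. In all, 4 of 9 libraries correlated best with their own number in both other groups. Structure shared by the replicate numbers, if any, is left in the spread of the main fit. The replicate block called 0 members, and with it Sdhb in UVB-Saline against NoUVB skin had 0.00072. Depth limits the rows with few counts, such as Cox6b2 (4 to 14 counts per library), Cox4i2 (6 to 23) and Cox8b (8 to 36).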
